A study of Mus musculus with 6 samples.

Results

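Matrix metalloproteinases (MMPs) and their inhibitors were examined as 10 genes of the 56923 in the count table: the inhibitors *Timp1*, *Timp2*, *Timp3*, and *Timp4*, the proteases *Mmp2*, *Mmp14*, and *Mmp15*, and the related proteases *Adamts1*, *Adamts2*, and *Adam17*. The genes were chosen by name, with earlier results of these data known. All 10 were among the 17212 genes that passed the filter on low counts. mRNA-Seq had been carried out on the left ventricles (LVs) of 12-week-old mice, 3 wild-type (WT) and 3 heterozygous for the R409C substitution in *Lztr1*, with 1 library per mouse. The *Lztr1* R409C/+ mice carry the substitution in every cell from a knock-in made with CRISPR/Cas9, on a background crossed repeatedly to C57BL/6J, and serve as a model of Noonan syndrome with cardiac hypertrophy. WT mice carry no altered *Lztr1* allele, no treatment is named for either group, and the methods state that male mice were used to assess phenotypes. The sample labels name the tissue only as heart, and neither they nor the methods give a batch.

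MMPs are zinc-dependent endopeptidases that cut collagens and other components of the extracellular matrix. They are made as inactive precursors, and the tissue inhibitors of metalloproteinases (TIMPs) block their active sites. TIMP2 also has a role in activation, since it bridges the precursor of MMP2 to the membrane-bound MMP14, which cleaves it. ADAM and ADAMTS proteins are relatives of the MMPs that release membrane proteins and process matrix proteins, respectively, and TIMP3 inhibits several of them, ADAM17 included. In the heart, the balance of these proteases and inhibitors is known for its part in remodeling of the matrix.

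Total counts lay between 66130887 and 72641124 per mouse, and 3 counts amounted to at most 0.0541 CPM (counts scaled to a common library total). This floor reflects counting error only. Scaling used the trimmed mean of M values (TMM). The share of counts from mitochondrially encoded genes was 13.8% in WT replicate 3 and 45.4% in *Lztr1* R409C/+ replicate 1, against 29.7% to 37.3% in the other mice. *Lztr1* itself was at 23.5 ± 1.11 CPM in WT and 25.7 ± 2.03 CPM in *Lztr1* R409C/+ mice (SD, n = 3 each), which does not check the labels, since a substitution leaves the gene in place. Cardiomyocyte markers summed to between 27627 and 40983 CPM. Atrial markers summed to 38.1 to 76.6 CPM in WT and 53.5 to 107 CPM in *Lztr1* R409C/+ mice, nearly all from *Nppa*, while *Sln* had at most 4 counts in any mouse and *Myl7* had 0 counts in every WT mouse and 4, 0, and 19 in *Lztr1* R409C/+ replicates 1, 2, and 3.

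Levels of different genes were compared as CPM per kilobase of exons. The length was the union of the exons of all annotated transcripts, from 1957 bases for *Timp1* to 9460 for *Adamts2*. It can exceed the length of the transcript expressed, so the order of genes depends on this choice. In WT mice, the highest levels by this measure were *Mmp15* at 20.4 ± 2.28, *Timp2* at 19.3 ± 2.28, and *Timp3* at 18.1 ± 1.61 CPM per kilobase (SD, n = 3), and neighbors in this order overlapped. *Mmp2* followed at 12.2 ± 0.897 and *Adamts1* at 6.72 ± 0.502 CPM per kilobase, each separated from the genes next to it in every WT mouse. *Adam17* at 5.22 ± 0.841 and *Timp4* at 4.94 ± 1.58 CPM per kilobase overlapped, as did *Adamts2* at 2.12 ± 0.200 and *Mmp14* at 2.08 ± 0.313. *Timp1* was lowest, at 0.517 ± 0.225 CPM per kilobase. In *Lztr1* R409C/+ mice, the first 4 places were held by the same genes, now with *Timp2* at 22.0 ± 3.18, *Mmp15* at 20.8 ± 6.35, *Timp3* at 18.1 ± 3.69, and *Mmp2* at 17.1 ± 5.14 CPM per kilobase, and *Mmp2* overlapped *Timp3*. *Timp1* was again lowest, at 0.343 ± 0.115.

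Among the 10 genes, *Mmp2* had the lowest unadjusted p for the genotype. It encodes gelatinase A, which digests denatured collagen and basement membrane collagen, and lies on chromosome 8 of GRCm39 (ENSMUSG00000031740.9, 93553902 to 93580049, plus strand, 15 exons in the union of its transcripts). *Mmp2* measured 42.8, 46.5, and 40.2 CPM in WT replicates 1, 2, and 3 and 39.5, 71.5, and 70.3 CPM in the same order of *Lztr1* R409C/+ replicates. Mutant replicates 2 and 3 lay above every WT mouse and replicate 1 lay below every WT mouse, so the groups overlapped. Means were 43.1 ± 3.17 and 60.4 ± 18.1 CPM (SD, n = 3 each). The log2 fold change was 0.49 (standard error 0.21, 95% interval 0.026 to 0.95), and edgeR's quasi-likelihood test gave an unadjusted p of 0.0401 (adjusted p = 0.558, Benjamini-Hochberg). The two-sided exact permutation test of CPM gave p = 0.4, and the smallest p this design can reach is 0.1.

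**Figure D1:**
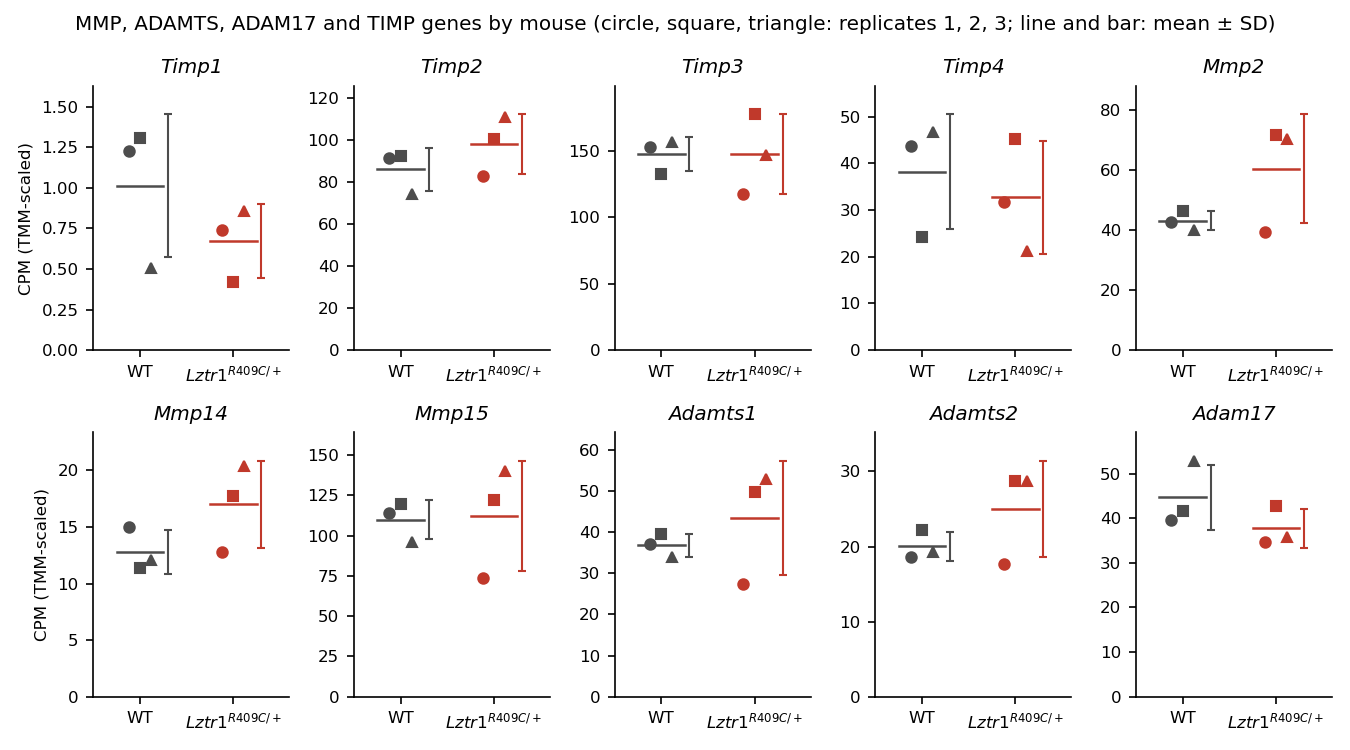
CPM (vertical axes, each from 0) of the 10 genes in WT (grey) and *Lztr1* R409C/+ (red) mice, with replicates 1, 2, and 3 as circle, square, and triangle and the mean ± SD beside them. In *Mmp2*, *Mmp15*, *Adamts1*, and *Adamts2*, *Lztr1* R409C/+ replicates 2 and 3 lie above and replicate 1 below all WT mice.

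*Mmp14*, the membrane-anchored protease that activates the MMP2 precursor, lies on chromosome 14 (ENSMUSG00000000957.12, 54668878 to 54682821, plus strand, 11 exons). It measured 15.0, 11.4, and 12.0 CPM in WT and 12.8, 17.8, and 20.4 CPM in *Lztr1* R409C/+ mice, in replicate order. Here too *Lztr1* R409C/+ replicates 2 and 3 were the highest of the 6 mice, whereas replicate 1 fell within the WT range. The log2 fold change was 0.41 (standard error 0.20, 95% interval -0.031 to 0.85, adjusted p = 0.601 by the same edgeR test), and means were 12.8 ± 1.93 and 17.0 ± 3.85 CPM. *Mmp15*, another membrane-anchored MMP, lies on chromosome 8 (ENSMUSG00000031790.9, 96078895 to 96101708, plus strand, 10 exons). It measured 114.0, 119.8, and 96.2 CPM in WT and 74.0, 122.0, and 140.4 CPM in *Lztr1* R409C/+ mice, so that the mutant mice held both the lowest and the highest value. Its means were 110.0 ± 12.3 and 112.1 ± 34.3 CPM, with a log2 fold change of 0.028 (95% interval -0.45 to 0.50, adjusted p = 0.981, edgeR), an interval that leaves room for a difference in either direction.

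The secreted ADAMTS proteases resembled *Mmp2* in which mice were high and low. *Adamts1*, which cleaves the proteoglycans versican and aggrecan, lies on chromosome 16 (ENSMUSG00000022893.15, 85590579 to 85600009, minus strand, 10 exons). It measured 37.0, 39.4, and 33.9 CPM in WT and 27.4, 49.8, and 52.9 CPM in *Lztr1* R409C/+ mice, and its log2 fold change was 0.24 (95% interval -0.24 to 0.72, adjusted p = 0.806, edgeR). *Adamts2*, the procollagen N-proteinase that trims newly made fibrillar collagen, lies on chromosome 11 (ENSMUSG00000036545.10, 50492787 to 50698400, plus strand, 24 exons). It measured 18.6, 22.2, and 19.3 CPM in WT and 17.7, 28.7, and 28.7 CPM in *Lztr1* R409C/+ mice, with a log2 fold change of 0.32 (95% interval -0.11 to 0.76, adjusted p = 0.692, edgeR). For both genes, *Lztr1* R409C/+ replicate 1 was the lowest and the other 2 mutant mice were the highest of the 6.

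*Adam17*, the sheddase that releases tumor necrosis factor and ligands of the EGF receptor from the cell surface, did not share this order of the mice. It lies on chromosome 12 (ENSMUSG00000052593.17, 21373510 to 21423672, minus strand, 20 exons). *Adam17* measured 39.5, 41.6, and 52.9 CPM in WT and 34.6, 42.6, and 35.9 CPM in *Lztr1* R409C/+ mice. *Lztr1* R409C/+ replicates 1 and 3 were below every WT mouse, while replicate 2 lay within the WT range. The log2 fold change was -0.24 (standard error 0.17, 95% interval -0.61 to 0.12, adjusted p = 0.726, edgeR), from 44.6 ± 7.20 to 37.7 ± 4.33 CPM.

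Among the inhibitors, no gene had an unadjusted p under 0.05. *Timp2*, the inhibitor that also takes part in MMP2 activation, lies on chromosome 11 (ENSMUSG00000017466.10, 118191887 to 118246566, minus strand, 9 exons). It measured 91.6, 92.5, and 74.5 CPM in WT and 82.9, 100.4, and 111.1 CPM in *Lztr1* R409C/+ mice (log2 fold change 0.19, 95% interval -0.18 to 0.55, adjusted p = 0.799, edgeR). *Lztr1* R409C/+ replicates 2 and 3 were again above every WT mouse, and replicate 1 lay inside the WT range. *Timp3*, the matrix-bound inhibitor of ADAM17 and ADAMTS proteases, lies on chromosome 10 (ENSMUSG00000020044.14, 86136236 to 86185371, plus strand, 8 exons). It measured 153.2, 132.7, and 157.1 CPM in WT and 117.5, 177.6, and 147.3 CPM in *Lztr1* R409C/+ mice. Its means were 147.7 ± 13.1 and 147.5 ± 30.1 CPM, and the 95% interval of the log2 fold change ran from -0.39 to 0.39 (adjusted p = 0.998, edgeR). The mutant mice included the highest and the lowest *Timp3* values, on either side of the WT range.

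*Timp4*, the inhibitor known for its high expression in heart, lies on chromosome 6 (ENSMUSG00000030317.9, 115187773 to 115229336, minus strand, 7 exons). It measured 43.7, 24.2, and 46.8 CPM in WT and 31.7, 45.2, and 21.2 CPM in *Lztr1* R409C/+ mice, so each group held both high and low mice. Its log2 fold change was -0.23 (95% interval -0.87 to 0.41, adjusted p = 0.867, edgeR). *Timp1*, the inducible inhibitor of many MMPs, lies on the X chromosome (ENSMUSG00000001131.12, 20736316 to 20740976, plus strand, 5 exons) and had low counts, with 81, 84, and 48 counts in the WT group and 41, 30, and 62 in the *Lztr1* R409C/+ group. These corresponded to 1.23, 1.31, and 0.507 CPM in WT and 0.740, 0.420, and 0.855 CPM in *Lztr1* R409C/+ mice, where WT replicates 1 and 2 were the highest and the other 4 mice were intermixed. The log2 fold change of *Timp1* was -0.59, and its 95% interval, -1.62 to 0.45, was the widest of the 10 genes (adjusted p = 0.776, edgeR).

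**Figure D2:**
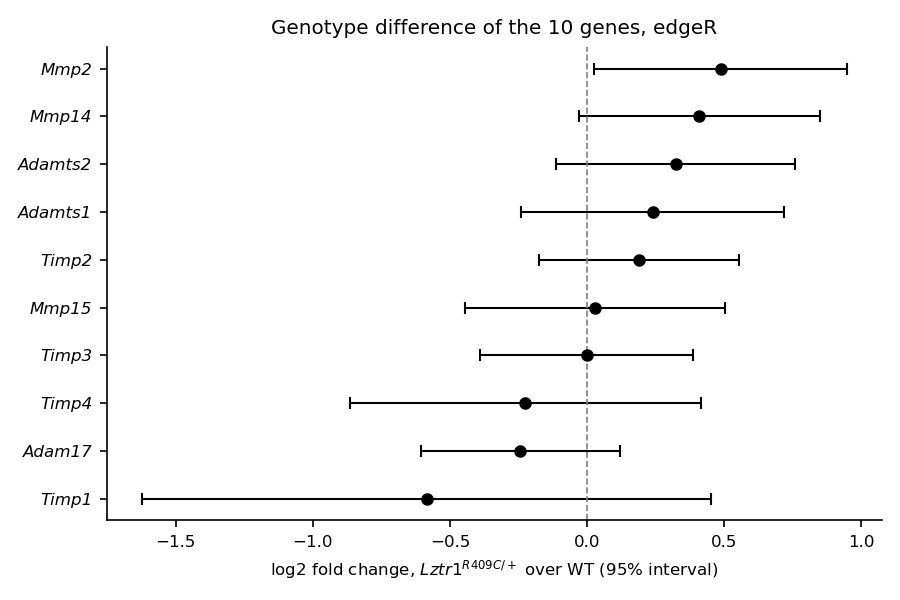
Log2 fold change of *Lztr1* R409C/+ over WT mice (horizontal axis) of the 10 genes, with points for the edgeR estimate and bars for the 95% interval, 3 mice per genotype. Only the bar of *Mmp2*, from 0.026 to 0.95, does not reach 0, and that of *Timp1* is the widest.

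Over the 10 genes, 6 log2 fold changes were above 0 and 4 below, with a median of 0.11, against a median of 0.012 and 51.4% above 0 over all genes tested. After Benjamini-Hochberg adjustment of edgeR's p-values, 0 of the 10 genes passed a false discovery rate of 0.05, which 0.0407% of all genes tested did, and 0 passed it with DESeq2, against 0.871% of all genes. At an unadjusted p under 0.05, 1 of the 10, *Mmp2*, was higher and 0 were lower in *Lztr1* R409C/+ mice, against 5.77% higher and 2.86% lower (8.63% in either direction) of all genes. With a correction for gene length, the split over all genes was 3.92% higher and 4.38% lower, and *Mmp2* was no longer under 0.05. The groups were separate in 0 of the 10 genes and in 15.5% of all genes. The count at an unadjusted p under 0.05 was 1 without WT replicate 1 (*Mmp14*, with *Mmp2* no longer under 0.05), 0 without WT replicate 2 or 3 or *Lztr1* R409C/+ replicate 2 or 3, and 4, all higher, without *Lztr1* R409C/+ replicate 1, where 4.82% of all genes tested were higher and 2.73% lower. With each mouse left out in turn, these shares ran from 4.80% to 5.72% higher and from 1.87% to 2.97% lower. Without that last mouse, the log2 fold changes were 0.71 for *Mmp2*, 0.57 for *Mmp14*, 0.47 for *Adamts1*, and 0.51 for *Adamts2*, and 0 genes passed the false discovery rate. They were 0.34, 0.37, 0.12, and 0.21 without *Lztr1* R409C/+ replicate 2 and 0.36, 0.26, 0.071, and 0.21 without replicate 3, in the same order of genes. The same 4 genes had an unadjusted p under 0.05 when WT replicate 3 was left out as well, an alternative chosen after seeing the data in which 5.92% of all genes were higher and 2.58% lower.

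How the mutant mice differed among themselves recurred from gene to gene. In 6 of the 10 genes (*Timp2*, *Mmp2*, *Mmp14*, *Mmp15*, *Adamts1*, and *Adamts2*), *Lztr1* R409C/+ replicates 2 and 3 were above every WT mouse, an order found in 14.0% of all genes tested. In 4 of these, *Mmp2*, *Mmp15*, *Adamts1*, and *Adamts2*, replicate 1 was also below every WT mouse, which held for 2.06% of all genes. That mouse was the lowest of the 6 in 6 genes, namely the last 4, *Timp3*, and *Adam17*, against 20.0% of all genes. These orders were described after the values were seen. *Lztr1* R409C/+ replicate 1 was also the mouse with the highest mitochondrial share, and the part of this share in the pattern was not tested.

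The proximal promoters of 3 genes that shared the high values of *Lztr1* R409C/+ replicates 2 and 3 are shown for the sequence that lies before their start sites. *Timp2* and *Mmp15* shared those high values too and are not printed. They are from RefSeq on GRCm38.p6, an earlier build than that of the counts, and each runs 5′ to 3′ on the strand of its gene over the 250 bases before the annotated start: *Mmp14* at chr14:54431348-54431597 on the plus strand, *Adamts1* at chr16:85803114-85803363 on the minus strand, and *Adamts2* at chr11:50601835-50602084 on the plus strand. Capitals mark GC boxes (GGGCGG on either strand, a site known for SP1) and a TATA box (TATAAA).
Mmp14: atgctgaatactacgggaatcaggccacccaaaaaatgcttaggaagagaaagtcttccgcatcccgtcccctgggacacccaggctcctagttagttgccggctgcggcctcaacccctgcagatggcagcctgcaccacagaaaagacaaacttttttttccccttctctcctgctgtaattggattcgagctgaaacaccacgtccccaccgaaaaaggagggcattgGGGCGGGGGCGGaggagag
Adamts1: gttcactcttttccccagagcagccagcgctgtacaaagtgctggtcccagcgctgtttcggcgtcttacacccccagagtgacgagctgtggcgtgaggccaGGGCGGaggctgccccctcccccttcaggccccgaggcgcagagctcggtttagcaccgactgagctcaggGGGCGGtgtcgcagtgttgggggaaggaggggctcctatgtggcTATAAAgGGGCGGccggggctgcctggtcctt
Adamts2: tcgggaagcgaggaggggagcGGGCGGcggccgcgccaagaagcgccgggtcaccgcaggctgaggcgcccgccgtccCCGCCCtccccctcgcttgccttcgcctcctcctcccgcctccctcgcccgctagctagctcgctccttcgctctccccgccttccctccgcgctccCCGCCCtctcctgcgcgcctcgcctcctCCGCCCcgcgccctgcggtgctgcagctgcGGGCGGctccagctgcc
Motifs were searched on both strands over the 250 bases before and 50 after each start, in the 9 of the 10 genes with an entry, which leaves out *Mmp2*. A GC box was present in 8 of the 9, all but *Timp4*, against 35.7% of 32851 promoters of the same length, and a TATA box was present in *Adamts1* only, against 13.6%. The AP-1 motif TGANTCA was present in 0 of the 9 and in 7.81% of all promoters, which says only that these letters are not in this window. In the printed 250 bases, G and C made up 55.2% for *Mmp14*, 65.6% for *Adamts1*, and 78.0% for *Adamts2*, with 2, 3, and 5 GC boxes, and *Timp2* and *Mmp15* had 1 GC box each in the same window.

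The composition of each family was compared within each mouse, which removes the scaling between libraries. Shares and ratios per length were chosen after the values were seen and are given as a description. The groups were separate in 5 of the 19 computed, all of which involve *Mmp2* or *Mmp15* and so share values, and no share over all pairs of genes was computed to read this count against. *Mmp2* made up 33.9%, 35.4%, and 36.5% of the summed CPM per kilobase of the 3 MMP genes in WT against 41.4%, 44.3%, and 40.4% in *Lztr1* R409C/+ mice. *Lztr1* R409C/+ replicate 1, where the CPM of *Mmp2* was lowest, was thus above all WT mice by this share, as were the other 2 mutant mice. *Mmp15* made up 59.2%, 59.7%, and 57.2% in WT against 50.8%, 49.4%, and 52.9% in *Lztr1* R409C/+ mice, again without overlap. Accordingly, the log2 ratio of *Mmp2* to *Mmp15* was -0.73 ± 0.080 in WT compared with -0.28 ± 0.11 in *Lztr1* R409C/+ mice (SD, n = 3 each). *Mmp14* contributed 6.02% ± 0.957 in WT compared with 6.91% ± 0.723 in *Lztr1* R409C/+ mice, with overlap. The other ratios that separated the groups were *Mmp15* to *Mmp14*, at 3.30 ± 0.25 and 2.89 ± 0.15 on the log2 scale, and *Mmp2* to *Adam17*, at 1.24 ± 0.31 and 1.91 ± 0.40.

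**Figure D3:**
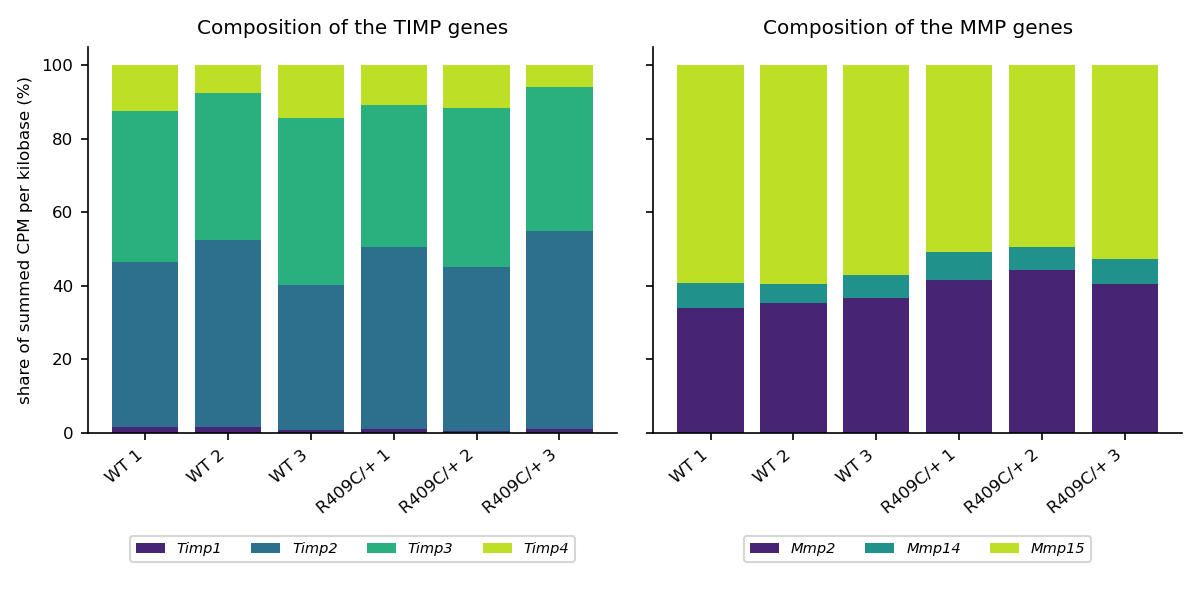
Share (vertical axis, percent) of each gene in the summed CPM per kilobase of the 4 TIMP genes (left) and of the 3 MMP genes (right), with 1 stacked bar per mouse. *Mmp2* takes 33.9% to 36.5% of the MMP bar in WT and 40.4% to 44.3% in *Lztr1* R409C/+ mice, and the TIMP shares overlap between the genotypes.

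The inhibitor family did not separate in this way. *Timp2* made up 45.1% ± 5.66 and 49.4% ± 4.64, *Timp3* 42.3% ± 2.98 and 40.3% ± 2.60, *Timp4* 11.4% ± 3.42 and 9.48% ± 3.10, and *Timp1* 1.21% ± 0.531 and 0.794% ± 0.320 of the summed CPM per kilobase in WT and *Lztr1* R409C/+ mice, respectively. By CPM per kilobase of the union of exons, both genotypes therefore had *Timp2* and *Timp3* as the bulk of TIMP transcripts. The log2 ratio of the summed levels of the 3 MMP genes to those of the 4 TIMP genes was -0.36, -0.13, and -0.44 in WT. It was -0.48, -0.14, and 0.09 in *Lztr1* R409C/+ mice. Only in *Lztr1* R409C/+ replicate 3 was the sum of these 3 MMP genes above that of the TIMP genes, and the groups overlapped. Other MMP genes were not in the sum, so it does not give the balance of the whole families. For the trio of MMP2 activation, the ratios of *Mmp2* and of *Mmp14* to *Timp2* overlapped as well, at -0.66 ± 0.10 and -0.40 ± 0.30 for the former and -3.22 ± 0.23 and -3.01 ± 0.13 for the latter, on the log2 scale. *Adam17* to *Timp3*, the enzyme and its inhibitor, was at -1.80 ± 0.20 and -2.02 ± 0.16.

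The level of *Timp1* and *Timp4* varied most over the 6 mice, with an SD of log2 CPM of 0.58 and 0.49, against 0.20 to 0.40 in the other 8 genes. Among all genes tested, the nearest in pattern to *Timp4* was *Nr1d2*, a circadian repressor of transcription, by a root mean square difference of 0.13 in centered log2 CPM over the 6 mice. *Nr1d2* measured 94.8, 66.0, and 97.1 CPM in WT and 74.4, 98.9, and 47.2 CPM in *Lztr1* R409C/+ mice, low in the same 2 mice, WT replicate 2 and *Lztr1* R409C/+ replicate 3, as *Timp4*. *Prkg2*, at no more than 0.318 CPM in any mouse, and *Ccdc85a* came next, at 0.131 and 0.138. For *Timp1*, the nearest genes were *1700034H15Rik*, *Pcdhga6*, and *Sgip1*, at 0.130, 0.148, and 0.158, all at low levels of at most 2.54 CPM.

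Several of the genes share bases with others, and the sources used here do not state whether strand was used in counting. *Timp1*, *Timp3*, and *Timp4* lie inside the synapsin genes *Syn1*, *Syn3*, and *Syn2* on the opposite strand, which had 145, 144, and 1176 counts over the 6 mice against 346, 63433, and 15401 for the TIMP genes. *Timp1* shares 0 exon bases with *Syn1*, while *Timp3* shares 1734 with *Syn3* and *Timp4* 1142 with *Syn2*. *Adam17* shares 341 exon bases with *Iah1* on the opposite strand, which had 2689 counts against 17859. *Timp2* shares 332 with *Cep295nl* on its own strand (31 counts against 38886) and *Mmp2* 860 with the antisense transcript *Gm45472* (189 counts against 22014). *Mmp14* shares 219 exon bases with the antisense transcript *Gm62879* and *Adamts2* 84 with the antisense transcript *Gm51860*, neither of which is listed in the counts.

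The remaining genes of the protease system were described from 5 lists of 91 genes, of which 72 were tested and 11 had 0 counts in every mouse. The lists were chosen with earlier results of these data known, so their shares are a description and not a test. Their median log2 fold change was 0.12, with 50 above 0 and 22 below. At an unadjusted p under 0.05, 11 were higher (15.3%, against 5.77% of all genes tested) and 1 was lower (against 2.86%) in *Lztr1* R409C/+ mice, and 0 passed the false discovery rate of 0.05 by edgeR, against 1 by DESeq2, *Mmp12*, which called 0.871% of all genes tested. In 15 the groups were separate, 11 with every mutant mouse above and 4 with every mutant mouse below WT, where 8.30% and 7.23% of all genes tested were. The count of 12 was 7 without WT replicate 1, 6 without *Lztr1* R409C/+ replicate 2, and 7 without *Lztr1* R409C/+ replicate 3, and between 8 and 15 without any other mouse. The share of all genes tested was 5.09% higher and 2.08% lower without WT replicate 1, 5.19% and 2.97% without *Lztr1* R409C/+ replicate 2, and 4.89% and 2.85% without *Lztr1* R409C/+ replicate 3.

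By list, the other MMP genes held the largest share, 4 of 11 tested. *Mmp12*, the macrophage elastase, measured 0.272, 0.295, and 0.0950 CPM in WT and 1.21, 0.951, and 0.676 CPM in *Lztr1* R409C/+ mice, with every mutant mouse above every WT mouse (log2 fold change 2.11, unadjusted p = 0.00275, adjusted p = 0.275, edgeR). *Mmp19* measured 0.953, 0.932, and 1.30 CPM in WT and 1.50, 3.02, and 3.48 CPM in *Lztr1* R409C/+ mice, also without overlap (log2 fold change 1.33, adjusted p = 0.284, edgeR). The others were *Mmp9*, gelatinase B of neutrophils and macrophages, and *Mmp13*, a collagenase, with log2 fold changes of 1.30 and 0.92. These 4 MMP genes were at most 3.48 CPM in any mouse. The MMP genes with 0 counts were *Mmp1a*, *Mmp1b*, *Mmp7*, *Mmp10*, *Mmp20*, *Mmp21*, and *Mmp24*.

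Of the other ADAMTS genes, 3 of 14 tested had an unadjusted p under 0.05 and were higher, namely the aggrecanase *Adamts4* (log2 fold change 0.93), *Adamts8* (1.57), and *Adamts10* (0.37). The other ADAM genes had 2 of 10 higher, *Adam8* of myeloid cells (1.61) and *Adam11* (0.50), and 1 lower, *Adam23*. *Adam23* measured 2.03, 1.58, and 1.63 CPM in WT and 0.830, 0.769, and 1.32 CPM in *Lztr1* R409C/+ mice, every mutant mouse below WT (log2 fold change -0.84, adjusted p = 0.538, edgeR). Among activators and inhibitors, 1 of 20 was higher, the matrix glycoprotein *Thbs1* (0.64), and among substrates, 1 of 17, the tumor necrosis factor receptor *Tnfrsf1a*, which ADAM17 sheds (0.49). These last shares (5.88% for the substrates) were near the 5.77% of all genes. Adjusted p-values of these 7 higher genes ran from 0.470 to 0.561 in edgeR's test.

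**Figure D4:**
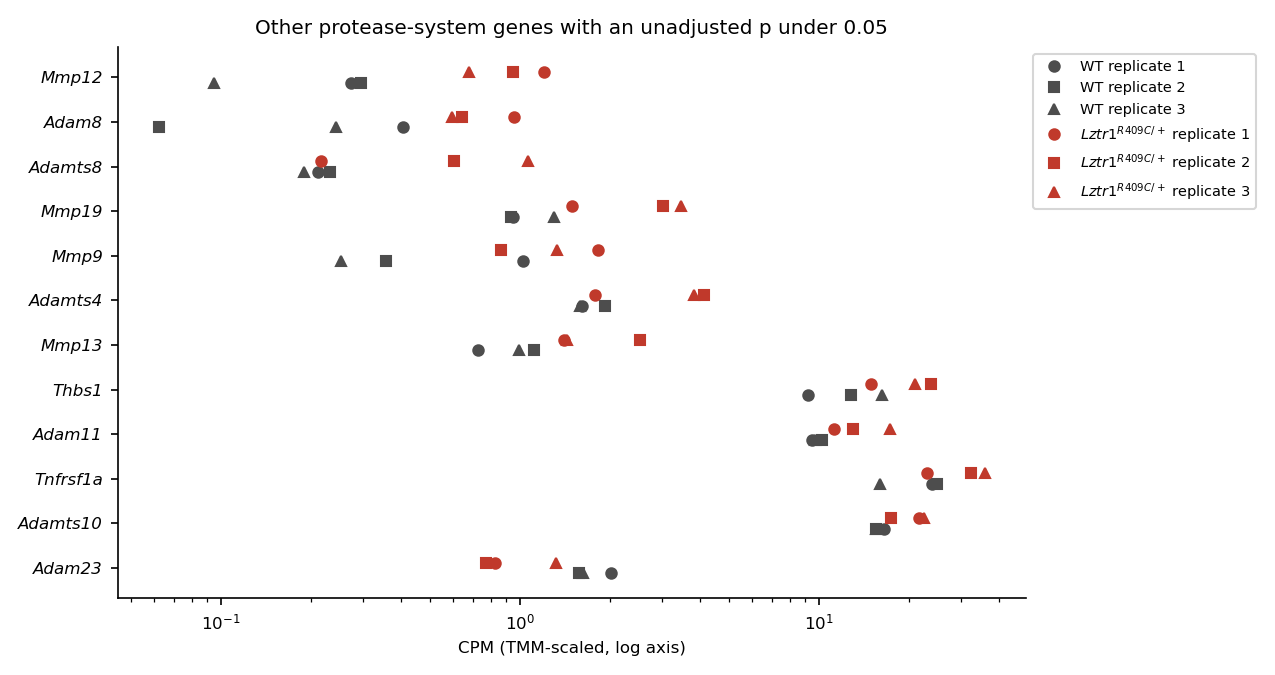
CPM (horizontal log axis) of the 12 further protease-system genes with an unadjusted p under 0.05 in WT (grey) and *Lztr1* R409C/+ (red) mice, 1 point per mouse. *Adam23* is the gene with all mutant mice to the left of WT, and *Mmp12*, *Mmp19*, *Mmp13*, *Adam8*, *Adam11*, and *Adamts10* have all mutant mice to the right.

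Markers of the cell types in the ventricle were set beside these values. In whole tissue, more cells of a type and more RNA per cell cannot be told apart. The 8 macrophage markers summed to 123 to 126 CPM in WT and 215 to 235 CPM in *Lztr1* R409C/+ mice, with all 8 higher at an unadjusted p under 0.05 and *C1qb* and *C1qc* past the false discovery rate (adjusted p = 0.0241 each, edgeR). With the replicate block, 0 of all genes tested passed that rate as higher, so both calls were lost. With the gene length correction, 1 gene did, so at most 1 of these calls was kept. Of the 9 fibroblast markers, 4 had an unadjusted p under 0.05 and were higher (*Tcf21*, *Lum*, *Dpt*, and *Postn*), and the sum of all 9 ran from 1340 to 1666 CPM in WT and from 1218 to 1744 CPM in *Lztr1* R409C/+ mice. The fibroblast, endothelial, and cardiomyocyte sums were all lowest in *Lztr1* R409C/+ replicate 1, at 1218, 729, and 27627 CPM. Single fibroblast markers did not all share this order, since *Dcn* (398 CPM), *Lum* (76.7 CPM), and *Dpt* (74.3 CPM) were highest in that mouse. By contrast, *Gsn* (453 CPM), *Col1a1* (67.9 CPM), and *Col1a2* (75.6 CPM) were lowest there. The 7 endothelial markers summed to 756 to 870 and 729 to 1036 CPM, with 1 higher (*Fabp4*), and the 7 smooth muscle and pericyte markers to 900 to 1160 and 877 to 1081 CPM, with 2 lower (*Myh11* and *Tagln*). Lymphocyte markers summed to 0.728 to 1.17 CPM in WT and 2.21 to 2.73 CPM in *Lztr1* R409C/+ mice, without overlap. All 5 tested had a log2 fold change above 0 (median 1.61), every mutant mouse was above every WT mouse in 3, and 1, *Cd79a*, had an unadjusted p under 0.05. Mesothelial markers summed to 4.65 to 5.78 and 5.22 to 8.72 CPM (2 of 4 higher), and red blood cell genes to 579 to 1479 and 1042 to 2626 CPM (3 of 5 higher). The adipocyte sum was 0.148 to 0.249 CPM in WT and at most 0.0414 CPM in *Lztr1* R409C/+ mice, with *Lep* at 0 in every mouse, and 0 of the 7 cardiomyocyte and 2 tested atrial markers had an unadjusted p under 0.05. The part of these cell types in the values of the proteases and inhibitors was not tested.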

How the data were processed

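RNA from the PBS-perfused LVs of 3 WT and 3 *Lztr1* R409C/+ mice was sequenced, 1 library per mouse, and replicates were compared as separate mice. Per the labels and methods, the authors trimmed reads with Trim Galore, aligned them to GRCm39 with HISAT2, and assigned them to genes with StringTie, and they deposited whole-number counts per gene without normalization. The annotation release, the use of strand, and how whole-number counts were taken from StringTie are not given in the sources used here. The authors' table of their own comparison (log2 fold changes, mean log2 CPM, p-values, and adjusted p-values) was used for gene names only. It named 9 of the 10 genes, and *Timp1* was matched by identifier in GENCODE M39, which also gave positions and exon lengths and held 56236 of the 56923 identifiers.

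The genotypes were compared on the counts with edgeR 4.0.16 in R 4.3.3 (filterByExpr, TMM, robust quasi-likelihood test, two-sided, Benjamini-Hochberg adjustment over 17212 genes, threshold 0.05). Standard errors and 95% intervals were derived from the F statistic. Single genes were also compared with a two-sided exact permutation test of CPM. The common biological coefficient of variation was 26.1%. Total counts were 66130887 to 72641124, and the 6 pairs of libraries within a genotype differed beyond sampling noise. The steps were tested on simulated data.

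The genes and lists were chosen with earlier results of these data known. Named genes are the 10 genes, *Lztr1*, the other protease-system genes with an unadjusted p under 0.05 (at most 12), the 3 genes nearest in pattern to the 2 genes of largest SD of log2 CPM (0.1 CPM added), and genes that overlap the 10. Markers with an unadjusted p under 0.05 and genes at 0 were named beside small counts. Promoters were taken from RefSeq (GRCm38.p6). Alternatives were other normalizations, DESeq2 1.42.0, other filters, removal of mitochondrially encoded genes, a replicate block, a loess correction for gene length, and the omission of each mouse. The labels give no batch.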

Additional observations from a re-analysis of the deposited data

How the results depend on the processing

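Of the 10 genes, 0 passed the false discovery rate of 0.05 in any of the 17 alternatives. The count of genes with an unadjusted p under 0.05, which was 1, was 0 with library size only (2.25% of all genes higher, 1.75% lower), 2 with upper quartile normalization (6.83%, 1.77%), 0 with the replicate block (5.25%, 1.88%), 0 with the gene length correction (3.92%, 4.38%), 0 with both (3.57%, 3.28%), 4 with WT replicate 3 and *Lztr1* R409C/+ replicate 1 left out (chosen after seeing the data), and 0 to 4 with each mouse left out. For *Mmp2*, the log2 fold change was 0.29 to 0.71 over the 17 alternatives (adjusted p = 0.288 to 0.976), and its unadjusted p was 0.0671 with the replicate block, 0.149 with the gene length correction, and 0.242 with library size only. The count of 7 genes called among all genes tested was 21 with library size only, 150 with DESeq2, 20 without a filter, 1 with the replicate block, 2 with the gene length correction, 1 with both, 1 with both mice left out, and 2 to 4 with each mouse left out. The count of 12 other protease-system genes was 7 with library size only, where the share over all genes was lower too (above), 19 with both mice left out (5.92% of all genes higher, 2.58% lower), and 6 to 15 with each mouse left out.

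*Timp1*, *Timp2*, *Mmp2*, *Mmp14*, *Adamts1*, *Adamts2*, and *Adam17* kept their direction in all 17 alternatives, whereas the 3 others did not. With each mouse left out, the log2 fold change ran from -0.92 to -0.34 for *Timp1*, 0.089 to 0.29 for *Timp2*, 0.26 to 0.57 for *Mmp14*, 0.071 to 0.47 for *Adamts1*, 0.21 to 0.51 for *Adamts2*, and -0.35 to -0.11 for *Adam17*. Over all 17 alternatives, it ran from -0.99 to -0.34 for *Timp1*, 0.067 to 0.29 for *Timp2*, and -0.44 to -0.046 for *Adam17*. The ranges of *Mmp14*, *Adamts1*, and *Adamts2* were the same. *Timp2* was 0.070 with the gene length correction and 0.067 with the replicate block added to it. *Adam17* was -0.44 with library size only and -0.046 with both mice left out. *Mmp15* was -0.058 with library size only, -0.016 with the replicate block, -0.060 with the gene length correction, -0.10 with both, and -0.17 to 0.25 with each mouse left out. *Timp3* was 0.038 with upper quartile normalization, 0.0052 with at least 10 counts in every mouse, 0.18 with both mice left out, and -0.16 to 0.13 with each mouse left out. *Timp4* was -0.54 to 0.0090 with each mouse left out. The cause of these shifts was not tested. Library size only moved the median of all genes to -0.144. Deviations of mice with the same replicate number correlated by -0.0573 to 0.0215, and those of mice with different numbers by -0.0499 to 0.0476. These values gave no sign that the numbers pair the mice. They cannot exclude a pairing, since other differences between mice enter them, and the block is given for completeness. With 3 mice per genotype, and 30 to 84 counts for *Timp1*, the intervals leave room for differences in either direction in 9 of the 10 genes.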
